A study of Mus musculus with 6 samples.

Results

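The 10 genes described here encode enzymes that remove reactive aldehydes and foreign compounds. They are 3 aldehyde dehydrogenases (Aldh1a1, Aldh2 and Aldh3a2), the sulfotransferase Sult1a1, and 6 glutathione transferases (Gstm1, Gstm2, Gstm5, Gstt1, Gsta4 and Gstp1). They were chosen by gene name, with earlier results of these data known. All 10 were found among the 26776 genes of the count table. Their transcripts were measured by RNA sequencing in long-term haematopoietic stem cells, or LT-HSCs, a small marrow population able to renew itself and to form all blood lineages. All cells came from bone marrow of Trim47+/eGFP mice, whose genotype name denotes an enhanced green fluorescent protein reporter at Trim47, present in both groups alike. They were sorted into a group with high reporter fluorescence (eGFPhi, 3 libraries) and a group with low fluorescence (eGFPlo, 3 libraries). The sources used here give neither age nor number of animals, nor the gate for LT-HSCs, nor whether libraries are separate animals or sorts. The p-values therefore cover the spread among these libraries alone, which may be technical. The comparison asks which transcripts differ with the activity of the Trim47 reporter.

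Aldehydes arise in every cell from metabolism, lipid peroxidation and demethylation, and they crosslink DNA and proteins. Aldehyde dehydrogenases oxidise them to carboxylic acids. In mice, loss of Aldh2 together with loss of the Fanconi anaemia repair pathway depletes blood stem cells, and high aldehyde dehydrogenase activity has long been used to enrich primitive blood cells by sorting. Glutathione transferases join glutathione to electrophilic compounds, and sulfotransferases add sulfate to phenols and related molecules, so that the products can leave the cell.

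Levels are given as CPM, the counts of a gene relative to the library total scaled by TMM factors, and differences as log2 fold changes of eGFPhi over eGFPlo with their standard error (SE), from edgeR's quasi-likelihood test fitted over 18081 genes with Benjamini-Hochberg adjustment and a threshold of 0.05. Library totals were 11221070 to 26058391 counts in eGFPhi and 11706873 to 18151852 in eGFPlo. Trim47 itself stood at 21.6 to 26.2 CPM in eGFPhi and 7.28 to 8.92 CPM in eGFPlo. All 11 LT-HSC markers were detected, with summed levels of 2028 to 2239 CPM in eGFPhi and 944 to 981 CPM in eGFPlo, and 10 of them were higher in eGFPhi. Markers of other cells also differed between the sorts. All 9 markers of granulocyte-monocyte progenitors were lower in eGFPhi (summed 291 to 299 CPM against 5301 to 5418 CPM in eGFPlo), as were all 10 of B cells (736 to 760 CPM against 6121 to 6212 CPM). Of the markers tested, 9 of 10 erythroid genes (106 to 114 CPM against 217 to 243 CPM), all 6 of mast cells and basophils (14.2 to 15.2 CPM against 64.3 to 80.7 CPM) and 5 of 6 of T and NK cells (7.03 to 8.49 CPM against 28.3 to 31.6 CPM) were lower. Megakaryocyte and platelet genes were higher for 7 of 8 and lower for 1 (693 to 699 CPM in eGFPhi against 172 to 195 CPM in eGFPlo), and of 6 tested stroma and endothelium genes 3 were higher and 3 lower (108 to 117 CPM against 121 to 129 CPM). Cd3e, Cd3g, Cd8a, Trbc2, Igll1, Cma1 and Cdh5 had no count in eGFPhi, and Gzmc and Lepr had none in eGFPlo. The part of these other cells in the members' values was not tested, and in bulk libraries a smaller share of cells of a type and less RNA per cell cannot be told apart.

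Most of the 10 members were higher in eGFPhi LT-HSCs. All 10 genes passed the filter on low counts. Of them 8 were higher in eGFPhi, as were 32.3% of all tested genes. Gstm1 alone of the members was lower, as were 31.7% of all genes, and Gstp1 did not pass the threshold. In either direction 9 members passed, against 64.0% of all genes, and with an assumed biological coefficient of variation of 0.2 the members higher were 6, against 20.1% of all genes. With a minimum fold of 1.5 they were 5, against 14.0% of all genes. The 3 eGFPhi libraries lay above all 3 eGFPlo libraries for the same 8 genes, a pattern seen for 35.2% of all genes, and below them for Gstm1, as for 34.6% of all genes. In all, 9 members had groups that did not overlap, against 69.8% of all genes. The median log2 fold change was 0.84 over the members and 0.00 over all tested genes. Because the members were chosen with earlier results of these data known, these shares describe them and are no test. An exact two-sided permutation test of a single gene's 6 values cannot go below p = 0.1 with 3 libraries against 3, and it gave that value for every member but Gstp1 (p = 0.3).

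**Figure D1:**
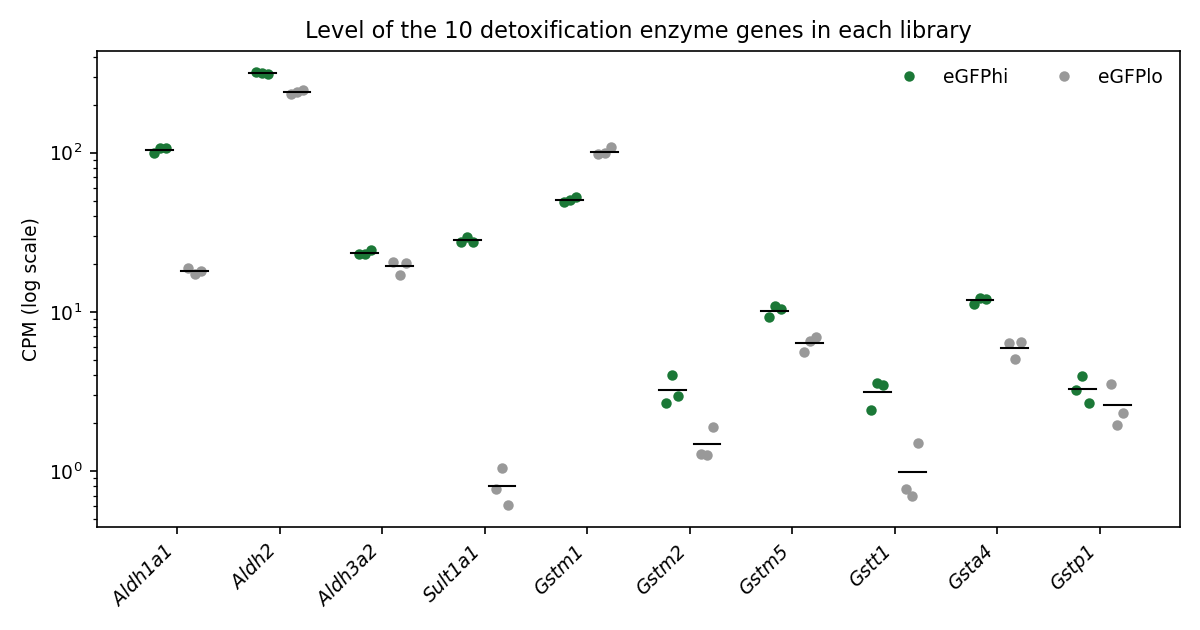
CPM of the 10 genes (log axis) in each library; points are libraries, eGFPhi in green at the left of each pair and eGFPlo in grey at the right, and black bars are means of 3 libraries. Sult1a1 and Aldh1a1 are the most widely separated, Gstm1 is the member with eGFPhi below eGFPlo, and the groups overlap for Gstp1.

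Aldh1a1, the cytosolic dehydrogenase that makes retinoic acid from retinaldehyde, had the largest rise among the 3 aldehyde dehydrogenases. The gene (ENSMUSG00000053279) lies on the plus strand of chromosome 19 at 20492715 to 20643465 of mouse build GRCm38, on which all positions here are given. Aldh1a1 stood at 98.9, 107 and 107 CPM in eGFPhi libraries 1 to 3, against 18.8, 17.4 and 18.0 CPM in eGFPlo libraries 1 to 3. The lowest eGFPhi library was 80.0 CPM above the highest eGFPlo library. The difference was 5.78-fold, with a 95% interval of 5.30 to 6.31 (log2 fold change 2.53, SE 0.05, edgeR adjusted p = 6.56e-08), and 663 of the tested genes rose more. By the distance between centred log2 CPM profiles over the 6 libraries, the genes most like Aldh1a1 among 10035 with a mean of at least 10 CPM were F830016B08Rik (30.1 CPM in eGFPhi and 5.32 CPM in eGFPlo), Rgs7bp (22.2 and 3.58 CPM in the same order) and Hey1 (23.4 and 3.66 CPM).

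Aldh2, the mitochondrial enzyme that oxidises acetaldehyde, was the most abundant dehydrogenase member and had a small rise. The gene (ENSMUSG00000029455) lies on the minus strand of chromosome 5 at 121566027 to 121593824. Aldh2 stood at 319.5, 316 and 311 CPM in eGFPhi, against 235, 242 and 248 CPM in eGFPlo, with no overlap between the groups. This 1.31-fold rise (log2 fold change 0.39, SE 0.03, edgeR adjusted p = 1.50e-05) was not past the threshold with an assumed biological coefficient of variation of 0.2 (adjusted p = 0.202). Aldh3a2, the microsomal dehydrogenase of long-chain fatty aldehydes (ENSMUSG00000010025, chromosome 11, 61223417 to 61267464, minus strand), was at 23.1, 23.1 and 24.4 CPM in eGFPhi and at 20.6, 17.1 and 20.3 CPM in eGFPlo. Its rise was 1.22-fold (log2 fold change 0.28, SE 0.09, edgeR adjusted p = 0.0216). Without eGFPhi replicate 3 the adjusted p was 0.0639, and with DESeq2 it was 0.0546.

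Sult1a1, a sulfotransferase of phenols, had the largest difference of the 10 genes. The gene (ENSMUSG00000030711) lies on the minus strand of chromosome 7 at 126672865 to 126676432. The eGFPhi libraries had 308, 769 and 531 counts, or 27.4, 29.5 and 27.3 CPM. The eGFPlo libraries had only 9, 15 and 11 counts, or 0.771, 1.05 and 0.609 CPM, so the level there was low but above the 3 counts that set a single library's limit. The fold was 34.9, with a 95% interval of 27.3 to 44.8 (log2 fold change 5.13, SE 0.15, edgeR adjusted p = 2.52e-07), and 227 genes rose more. DESeq2 gave a larger SE of 0.28 for this gene, so the interval may be too narrow. Within annotated transcripts, 6.58% of the 50-base windows of Sult1a1 also occur in the pseudogene Gm6939.

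The class mu glutathione transferases Gstm1, Gstm2 and Gstm5 are neighbours on chromosome 3 and did not move together. Gstm1 (ENSMUSG00000058135, 108012255 to 108017973, minus strand) was the most abundant of them and fell in eGFPhi. It stood at 49.3, 50.5 and 52.3 CPM in eGFPhi, against 97.5, 99.2 and 108 CPM in eGFPlo. The highest eGFPhi library was 45.1 CPM below the lowest eGFPlo library. The level was 2.0-fold lower in eGFPhi (log2 fold change -1.0, SE 0.05, edgeR adjusted p = 2.82e-06), and 1753 genes fell more. The markers of granulocyte-monocyte progenitors, B cells and erythroid cells were lower in the same eGFPhi libraries, and their part in the fall of Gstm1 was not tested.

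Gstm2 (ENSMUSG00000040562, 107981702 to 107986453, minus strand) went the other way at a low level. Its libraries held 2.67, 4.0 and 2.98 CPM in eGFPhi and 1.28, 1.26 and 1.88 CPM in eGFPlo, a gap of 0.787 CPM between the groups. The rise was 2.18-fold, with a 95% interval of 1.48 to 3.21 (log2 fold change 1.12, SE 0.24, edgeR adjusted p = 0.00449). Gstm5 (ENSMUSG00000004032, 107895821 to 107898686, plus strand) was at 9.26, 10.8 and 10.5 CPM in eGFPhi and at 5.57, 6.57 and 6.98 CPM in eGFPlo. It rose 1.60-fold (log2 fold change 0.68, SE 0.12, edgeR adjusted p = 0.00191). Gstm7 and Gstm4 are other genes of the cluster, named after their values were seen. Gstm7 rose 1.39-fold (3.16 ± 0.418 CPM in eGFPhi and 2.25 ± 0.0753 CPM in eGFPlo, SD, n = 3 each; edgeR adjusted p = 0.0354), a call that held under 6 of 17 alternative settings. Gstm4 did not pass the threshold, at 7.85 ± 0.41 CPM in eGFPhi and 6.66 ± 0.543 CPM in eGFPlo (edgeR adjusted p = 0.0839).

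The coding sequences of these neighbours are related but differ along their length. Gstm1 and Gstm2 are identical at 86.0% of aligned coding bases, Gstm1 and Gstm5 at 69.5%, and Gstm2 and Gstm5 at 71.0%. The first 90 coding bases of each, from the GENCODE M21 transcripts, are shown because opposite directions in close relatives depend on telling their reads apart. Capitals mark bases that differ from the aligned Gstm1 base or have no Gstm1 partner, 15 in Gstm2 and 30 in Gstm5.
Gstm1: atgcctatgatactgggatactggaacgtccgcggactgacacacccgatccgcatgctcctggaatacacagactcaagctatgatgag
Gstm2: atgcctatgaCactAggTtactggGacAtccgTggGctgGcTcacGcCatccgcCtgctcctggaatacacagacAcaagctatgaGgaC
Gstm5: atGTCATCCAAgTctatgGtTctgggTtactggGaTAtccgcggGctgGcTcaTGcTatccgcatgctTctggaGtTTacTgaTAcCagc
Of all 50-base windows in annotated transcripts, 18.9% of those of Gstm1, 5.65% of those of Gstm2 and 0 of those of Gstm5 also occur in another gene. For Gstm1 the partners include the pseudogenes Gstm2-ps1 and Gm8834 and the related gene Gstm3. Gstm1 is itself among the partners of Gstm2. No source used here says how reads matching several genes were counted, so the level of Gstm1 is less certain than that of Gstm5.

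The 300 bases around the annotated start of each gene (250 before it and 50 after), from RefSeq on GRCm38.p6, are shown for the same cluster and for Sult1a1. The cluster held members of opposite direction and Sult1a1 had the largest difference, so the choice followed the values. Both strands were searched for the antioxidant response element core TGACNNNGC and the xenobiotic response element core GCGTG, and capitals mark matches on either strand. The Gstm1 window is chr3:108017769-108018068 (minus strand), that of Gstm2 is chr3:107986371-107986670 (minus strand), that of Gstm5 is chr3:107895604-107895903 (plus strand) and that of Sult1a1 is chr7:126676369-126676668 (minus strand).
Gstm1: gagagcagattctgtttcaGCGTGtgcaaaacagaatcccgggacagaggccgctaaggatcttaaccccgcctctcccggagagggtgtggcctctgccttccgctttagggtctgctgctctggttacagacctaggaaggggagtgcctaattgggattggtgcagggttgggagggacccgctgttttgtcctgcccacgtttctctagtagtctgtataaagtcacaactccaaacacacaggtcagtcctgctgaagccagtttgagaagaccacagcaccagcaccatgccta
Gstm2: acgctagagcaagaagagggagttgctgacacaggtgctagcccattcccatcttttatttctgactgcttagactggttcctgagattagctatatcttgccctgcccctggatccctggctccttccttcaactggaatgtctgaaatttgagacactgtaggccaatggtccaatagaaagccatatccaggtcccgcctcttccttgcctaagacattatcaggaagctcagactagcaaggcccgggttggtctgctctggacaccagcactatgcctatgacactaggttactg
Gstm5: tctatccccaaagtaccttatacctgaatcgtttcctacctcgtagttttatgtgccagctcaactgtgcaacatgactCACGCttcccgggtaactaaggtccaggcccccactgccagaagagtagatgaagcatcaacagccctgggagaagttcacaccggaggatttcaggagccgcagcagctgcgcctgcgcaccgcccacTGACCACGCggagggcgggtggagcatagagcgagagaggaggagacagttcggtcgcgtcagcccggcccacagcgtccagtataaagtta
Sult1a1: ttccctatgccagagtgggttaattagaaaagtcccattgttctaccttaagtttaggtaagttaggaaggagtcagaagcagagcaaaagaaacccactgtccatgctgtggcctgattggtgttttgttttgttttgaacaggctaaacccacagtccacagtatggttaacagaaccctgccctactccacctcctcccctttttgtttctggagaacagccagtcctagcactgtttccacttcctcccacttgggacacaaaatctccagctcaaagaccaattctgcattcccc
Gstm5 held the antioxidant core at -42 to -34 from the start, and a xenobiotic core on the other strand lies inside that match. Windows were found for 8 of the 10 members, 10 windows in all, because Gstm1 and Aldh1a1 have a pair of annotated starts each. The antioxidant core occurred in 1 of these 10 windows, against 12.4% of 32851 windows over all genes and 14.2% of 13544 windows of tested genes. The xenobiotic core occurred in 5 of the 10, in windows of Aldh3a2, Gstm1, Gstm5 and Gstp1, against 32.4% of all windows and 48.9% of those of tested genes, so the members stood near the share of tested genes. The Gstm1 windows overlap and hold the same genomic match, which is counted in both.

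The other 3 glutathione transferase members are of other classes and sit on other chromosomes. Gsta4, an alpha class enzyme known for conjugating the lipid peroxidation product 4-hydroxynonenal (ENSMUSG00000032348, chromosome 9, 78182774 to 78209349, plus strand), was at 11.2, 12.2 and 12.0 CPM in eGFPhi and at 6.34, 5.03 and 6.42 CPM in eGFPlo. It rose 1.99-fold (log2 fold change 1.0, SE 0.12, edgeR adjusted p = 2.48e-04). Gstt1, a theta class enzyme that acts on small halogenated compounds (ENSMUSG00000001663, chromosome 10, 75783813 to 75798584, minus strand), was at 2.40, 3.57 and 3.49 CPM in eGFPhi and at 0.771, 0.699 and 1.49 CPM in eGFPlo. The eGFPlo libraries held 9, 10 and 27 counts, and library 3 had the most. The rise was 3.13-fold with a wide 95% interval of 1.91 to 5.13 (log2 fold change 1.64, SE 0.31, edgeR adjusted p = 0.00222). Its neighbour Gstt3, named after its values were seen, rose 1.30-fold (7.85 ± 0.788 CPM in eGFPhi and 5.96 ± 0.531 CPM in eGFPlo, SD, n = 3 each; edgeR adjusted p = 0.0289), past the threshold under 10 of 18 alternative settings.

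Gstp1, the pi class enzyme (ENSMUSG00000060803, chromosome 19, 4035407 to 4037985, minus strand), did not pass the threshold. It stood at 3.20, 3.96 and 2.67 CPM in eGFPhi and at 3.51, 1.96 and 2.33 CPM in eGFPlo, and the groups overlapped. The fold was 1.29 with a 95% interval of 0.858 to 1.95, which spans no change (log2 fold change 0.37, SE 0.25, edgeR adjusted p = 0.235). Its coding sequence is 98.1% identical to that of its neighbour Gstp2, with an identical run of 303 bases, and 33.7% of its 50-base windows occur in another gene. Gstp2, named after its values were seen, had 0 CPM in each eGFPhi library and 0.257, 0 and 0.332 CPM in the eGFPlo libraries. The counts of this pair therefore depend on how shared reads were treated, on which the sources used here are silent.

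**Figure D2:**
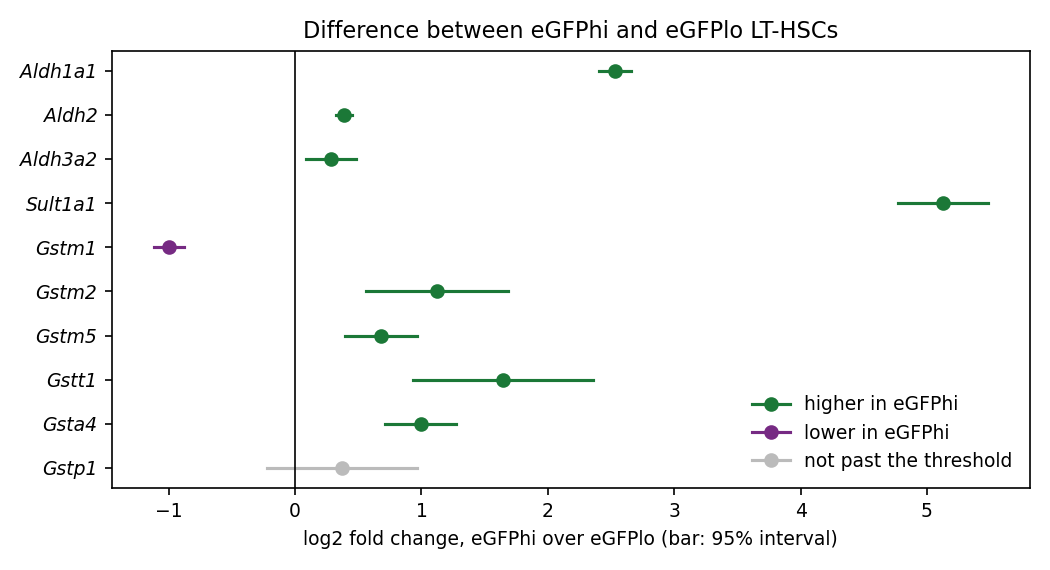
Log2 fold change of eGFPhi over eGFPlo for the 10 genes, with bars for the 95% interval of the edgeR fit; green marks genes higher in eGFPhi, purple lower and grey not past the threshold. Sult1a1 (5.13) and Aldh1a1 (2.53) lie farthest to the right, Gstm1 (-1.0) is on the left, and the interval of Gstp1 spans 0.

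Compared per kilobase of merged exons, so that genes of different length can be ranked, the order of the members differed between the sorts. In eGFPhi the order ran from Aldh2 (61.6 ± 0.801 CPM per kb, SD, n = 3) through Gstm1 (34.4 ± 1.04), Aldh1a1 (21.1 ± 0.955), Sult1a1 (18.6 ± 0.844), Gsta4 (9.32 ± 0.409), Gstm5 (7.97 ± 0.648) and Aldh3a2 (4.19 ± 0.127) to Gstp1 (2.12 ± 0.417), Gstt1 (2.07 ± 0.428) and Gstm2 (1.91 ± 0.413). In eGFPlo it ran from Gstm1 (69.0 ± 3.83 CPM per kb) through Aldh2 (47.1 ± 1.29), Gstm5 (4.99 ± 0.567), Gsta4 (4.69 ± 0.616), Aldh1a1 (3.66 ± 0.147), Aldh3a2 (3.44 ± 0.342), Gstp1 (1.68 ± 0.525), Gstm2 (0.879 ± 0.21) and Gstt1 (0.647 ± 0.288) to Sult1a1 (0.537 ± 0.147). Sult1a1 thus stood at place 4 in eGFPhi and at place 10 in eGFPlo. The ranges over 3 libraries overlapped between the neighbours Gstp1 and Gstt1, and Gstt1 and Gstm2, in eGFPhi. In eGFPlo they overlapped between Gstm5 and Gsta4, Aldh1a1 and Aldh3a2, Gstm2 and Gstt1, and Gstt1 and Sult1a1.

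The make-up of each enzyme class followed from these levels. Aldh1a1 held 23.2, 24.8 and 25.0% of the summed CPM per kb of the 3 dehydrogenase members in the eGFPhi libraries, against 7.17, 6.56 and 6.55% in the eGFPlo libraries. Gstm1 held 57.5 to 61.1% of the 6 glutathione transferase members in eGFPhi and 83.7 to 85.3% in eGFPlo. The sum of the dehydrogenase members was 86.9 ± 0.516 CPM per kb in eGFPhi and 54.2 ± 1.25 CPM per kb in eGFPlo (SD, n = 3 each). The sum of the glutathione transferase members, which is mostly Gstm1, was 57.8 ± 2.63 CPM per kb in eGFPhi and 81.8 ± 4.88 CPM per kb in eGFPlo. A count of members that rose and their summed transcript level therefore point in opposite directions for the glutathione transferases.

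**Figure D3:**
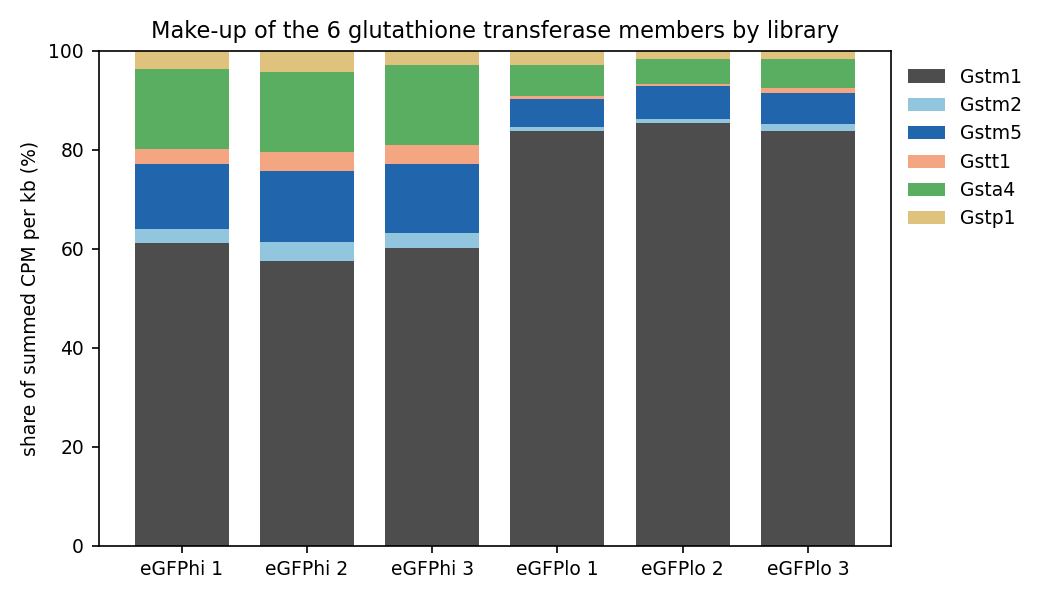
Share (%) of each glutathione transferase member in the summed CPM per kb of the 6 members, for each of the 6 libraries, with eGFPhi libraries at the left. Gstm1 takes 57.5 to 61.1% in eGFPhi and 83.7 to 85.3% in eGFPlo, and Gsta4 and Gstm5 take larger shares in eGFPhi.

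Related genes, listed by function, did not share one direction. Over 7 lists, 83 genes passed the filter, of which 31 (37.3%) were higher and 23 (27.7%) lower in eGFPhi, against 32.3% and 31.7% of all tested genes. Their median log2 fold change was 0.14. These shares are near those of all genes.

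Among 11 other aldehyde dehydrogenases tested, 4 rose and 3 fell (median log2 fold change -0.11). Aldh5a1, the succinate semialdehyde dehydrogenase, rose 2.42-fold to 13 ± 0.719 CPM in eGFPhi, against 5.42 ± 0.887 CPM in eGFPlo (SD, n = 3 each; edgeR adjusted p = 1.18e-04). Aldh1l1, the cytosolic 10-formyltetrahydrofolate dehydrogenase, rose 1.84-fold and Aldh7a1, which acts in lysine breakdown, 1.58-fold. Aldh9a1, a dehydrogenase of aminoaldehydes, was 1.43-fold lower in eGFPhi. Aldh1a7, named after its values were seen, is the neighbour of Aldh1a1 on chromosome 19 and 91.6% identical to it in coding sequence, and it went the other way. It stood at 0.267, 0.423 and 0.462 CPM in eGFPhi and at 2.91, 2.31 and 1.38 CPM in eGFPlo, which was 5.25-fold lower (log2 fold change -2.39, SE 0.36, edgeR adjusted p = 7.81e-04). The fold rests on 115 counts over all 6 libraries, and eGFPhi library 1 lay at the single-library limit of 3 counts. The first 90 coding bases of Aldh1a1 and Aldh1a7 are shown for their likeness, with capitals at the 5 bases of Aldh1a7 that differ.
Aldh1a1: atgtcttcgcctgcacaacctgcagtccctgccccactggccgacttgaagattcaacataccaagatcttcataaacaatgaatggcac
Aldh1a7: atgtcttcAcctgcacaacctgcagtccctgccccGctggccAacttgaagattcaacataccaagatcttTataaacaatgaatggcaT
Of the 50-base windows of Aldh1a1, 3.06% also occur in Aldh1a7.

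Alcohol dehydrogenases and aldehyde or carbonyl reductases, which reduce or interconvert the same substrates, gave 4 rises and 6 falls among 15 tested genes, with a median of -0.12. Ptgr1, the prostaglandin reductase that also reduces unsaturated aldehydes, was 6.59-fold lower at 4.10 ± 0.627 CPM in eGFPhi, against 27.7 ± 1.09 CPM in eGFPlo (edgeR adjusted p = 1.12e-06). The aldose reductase Akr1b3 and the aldehyde reductase Akr1a1 were 1.74-fold and 1.25-fold lower, and the aldo-keto reductase Akr1c13 rose 1.68-fold. Of 12 other glutathione transferases 3 rose and 3 fell, with a median of 0.19. The microsomal Mgst2 was 3.93-fold lower, at 2.89 ± 0.52 CPM in eGFPhi against 11.1 ± 0.29 CPM in eGFPlo (edgeR adjusted p = 2.05e-05). The theta class Gstt2 was 1.58-fold and the omega class Gsto1 1.17-fold lower. Gsto2 was higher on few reads, with 84 counts over the eGFPhi libraries and 5 over the eGFPlo libraries.

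No other sulfotransferase of the list passed the filter on low counts. Of 3 tested genes of sulfate donor metabolism, Papss2, which makes the donor, was 5.48-fold lower at 1.5 ± 0.304 CPM in eGFPhi, against 8.10 ± 1.30 CPM in eGFPlo (edgeR adjusted p = 3.37e-05), while Papss1 and Bpnt1 did not. Of 12 genes of glutathione synthesis, recycling and export, 3 rose and 4 fell, with a median of -0.04. Gsr, which regenerates reduced glutathione, was 2.79-fold lower at 56.6 ± 3.95 CPM in eGFPhi, against 158 ± 4.5 CPM in eGFPlo (edgeR adjusted p = 6.23e-07). Gclm, the modifier subunit of the rate-limiting enzyme of glutathione synthesis, rose 1.39-fold, the glutathione-degrading Chac2 2.60-fold and the conjugate exporter Abcc1 1.25-fold.

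Retinoid genes, which handle the product of Aldh1a1, gave 6 rises and 4 falls among 14 tested, with a median of 0.17. Cyp26b1, which degrades retinoic acid and is known to act in mouse stem cell dormancy, was at 10.8, 9.64 and 10.0 CPM in eGFPhi and at 0.600, 0.909 and 1.33 CPM in eGFPlo, a 10.2-fold rise (log2 fold change 3.35, SE 0.21, edgeR adjusted p = 9.53e-06). The receptor genes Rarb and Rarg rose 6.61-fold and 1.77-fold. Rarb shares 1793 bp of exon sequence with Top2b on the other strand, and no source used here gives the strand setting of the counting.

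Regulators that sense foreign compounds, with their classical targets, had the highest share of rises of the 7 lists. Of 16 tested 11 rose and 2 fell (68.8% and 12.5%), against 32.3% and 31.7% of all tested genes, with a median of 0.38. Some of these rises were not stable. Hmox1 and Srxn1, named after their values were seen, were past the threshold under 8 and 9 of 18 alternative settings. Other rises were small. Across those settings the log2 fold changes of Nfe2l2, Mafk and Bach1 were 0.18 to 0.23, 0.15 to 0.19 and 0.20 to 0.24. The genes that fell were Keap1 and Ephx2, and all of these were also named after their values were seen. Ahr, the aryl hydrocarbon receptor, rose 2.43-fold to 25.8 ± 0.526 CPM in eGFPhi, against 10.6 ± 0.314 CPM in eGFPlo (edgeR adjusted p = 4.02e-06), and its target Tiparp rose 1.8-fold to 190 ± 4.76 CPM, against 106 ± 1.92 CPM in eGFPlo. The small Maf gene Maff, whose product pairs with the antioxidant regulator Nrf2, rose 2.15-fold. The microsomal epoxide hydrolase Ephx1 was at 7.12, 6.65 and 6.68 CPM in eGFPhi, against 0, 0 and 0.554 CPM in eGFPlo, so all 10 of its eGFPlo counts came from replicate 3. With this list as with the others, the markers of progenitors and B cells fell in the same libraries, and their part was not tested. Among the genes named from the lists, Aldh1l1, Aldh5a1, Aldh7a1, Gclm, Ahr, Tiparp, Ephx1, Rarb, Gstt3, Mafk and Keap1 overlap exons of another annotated gene. Of the members, Aldh2, Sult1a1 and Gstm5 do so on the other strand, by 130, 61 and 178 bp.

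**Figure D4:**
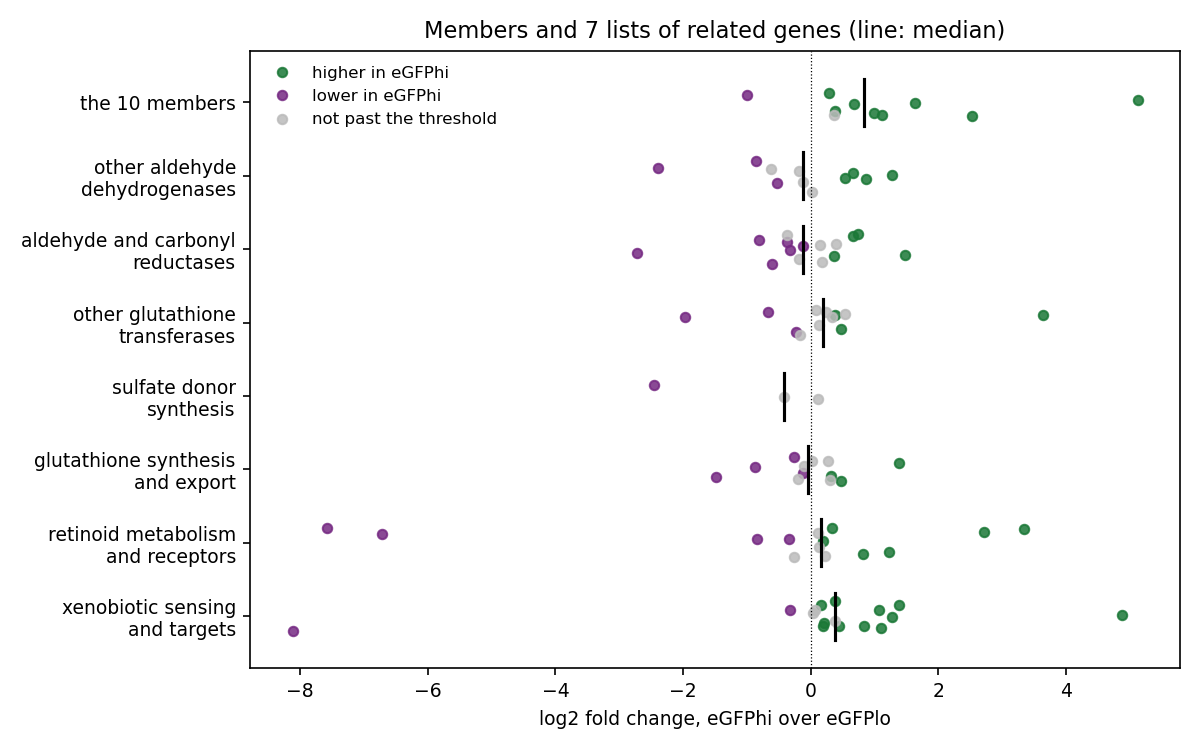
Log2 fold change of eGFPhi over eGFPlo for the 10 genes and the tested genes of the 7 lists; each point is a gene, green if higher in eGFPhi, purple if lower and grey if not past the threshold, and black lines are medians. The members have a median of 0.84, and the list medians run from -0.41 (sulfate donor synthesis) to 0.38 (xenobiotic sensing); the 3 points farthest left had no count in eGFPhi, so their place depends on the fit and is no size of change.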

How the data were processed

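Poly-A RNA was sequenced as paired-end, stranded libraries, per the labels' protocols. The submitters' processing notes name CASAVA 1.8, HISAT2, StringTie and edgeR without roles, and the builds hg38 and GRCm38. The deposited table gives raw read counts per gene and, per the file headers, FPKM values computed by the authors. Of its 26776 genes, 26710 have an identifier in GENCODE M21, and every member has the same coordinates there.

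Counts were tested in R 4.3.3 with edgeR 4.0.16: filterByExpr (minimum count 10, minimum total 15), TMM factors, and a quasi-likelihood F test on group alone, with p-values adjusted by Benjamini-Hochberg over 18081 genes. FPKM rests on summed isoform exons, so levels between genes used merged exons. The SE was computed as the size of the log2 fold change divided by the square root of the F statistic. Intervals are 95%, from this SE and the fit's degrees of freedom, and single-library limits (3 counts) cover counting error only. DESeq2 gave a larger SE for every member, so the SEs and intervals given may be too narrow. Genes named are all members, in each list up to 4 past the threshold with the smallest p, and the 3 genes most like Aldh1a1; others are marked as chosen after their values were seen. A gene that this rule picks is not reported here. No source used here gives the counting tool, its strand setting or its treatment of shared reads. The fit was tested on simulated counts with 200 changed genes and a common dispersion. It called 93.8% and 90.3% of genes with true log2 fold changes of 1 and -1. At 0.5 and -0.5 it called 60.6% and 33.3%, and it called 0.0173% of unchanged genes. In the data 64.0% of genes passed, so the simulation had far fewer changed genes than the data. Members and lists were chosen with earlier results of these data known. Alternatives included other factors and filters, DESeq2 1.42.0, limma 3.58.1, and leaving out each library.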

Additional observations from a re-analysis of the deposited data

How the results depend on the processing

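The direction of all 10 members was the same under the 18 alternatives run (17 for Gstm2, Gstt1 and Gstp1, which the stricter filter removed). Aldh1a1, Sult1a1, Gstm1, Gstm2, Gstt1 and Gsta4 stayed past the threshold in every alternative that tested them, while Aldh2 did not in 2, Gstm5 in 1 and Aldh3a2 in 5. Gstp1 passed in none, with a lowest adjusted p of 0.0593. The count of members higher was 5 with a minimum fold of 1.5, where 14 list genes were higher and 10 lower, and 14.0% and 11.0% of all tested genes were. With an assumed coefficient of variation of 0.2, 18 list genes were higher and 13 lower, and 20.1% and 16.5% of all tested genes were. Leaving out each library gave 7 to 8 members higher, 1 lower, 25 to 28 list genes higher and 21 to 23 lower. Of all tested genes, 29.2 to 30.3% were higher and 28.8 to 30.1% lower in these fits. With the replicate block 8 members were higher and 1 lower, and 27 and 21 list genes, against 30.7% and 29.9% of all tested genes. No source used here says that equal replicate numbers mark shared animals or sorts, so the numbers are not taken as pairs. Libraries with the same number did not deviate together (correlations of -0.0133, 0.000555 and -0.0108), which cannot show whether they shared animals or sorts. On log2 of FPKM plus 1 the log2 fold change of Sult1a1 was 3.28, since the added 1 compresses low values. Depth limits Sult1a1, Gstt1 and Gstm2 most, with as few as 9 counts in an eGFPlo library.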

Other observations

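Some related genes had no count in a sort. These were singled out after their values were seen, from list genes with at least 30 counts in all, and bounds are set against 3 counts over the group without counts. The soluble epoxide hydrolase Ephx2 had no count in eGFPhi, against 23, 46 and 20 counts in the eGFPlo libraries, at least 38.2-fold lower. The retinoid X receptor gene Rxrg had no count in eGFPhi, against 16, 15 and 32 in eGFPlo, at least 27.0-fold lower, and the retinol acyltransferase Lrat had none in eGFPhi, against 10, 12 and 12, at least 14.6-fold lower. The retinoic acid hydroxylase Cyp26c1 had 5, 20 and 8 counts in eGFPhi and none in eGFPlo, at least 8.54-fold higher. Cyp26c1 did not pass the filter on low counts and is in no median. With Ephx2, Rxrg and Lrat at their bounds, the median log2 fold changes of the retinoid and xenobiotic sensing lists stayed at 0.17 and 0.38. These genes lie below the medians with or without the bound, so the medians could not move. Markers of B cells and granulocyte-monocyte progenitors differ between the same sorts, and their part in these counts was not tested.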
